A study of Mus musculus with 4 samples.

Results

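The levels of 10 genes that encode feedback inhibitors of MAP kinase signalling were followed on 4 gene arrays. The cells were B16-OVA, a melanoma line of the mouse made to express ovalbumin. The genes were listed by name: the dual-specificity phosphatases Dusp1, Dusp4, Dusp5, Dusp6, Dusp10 and Dusp16, the Sprouty genes Spry1, Spry2 and Spry4, and the Sprouty-related gene Spred1. All 10 were measured, by 11 of the 41345 probes, and they were set among 22180 genes in all. Cells were grown in DMEM with FBS and transfected with the cationic lipid Lipofectamine for 6 hours. The 2 arrays labelled AT90ES came from cells that, by the labels, received a double-stranded DNA of 90 bases, and the other 2 came from mock transfected cells. The labels do not say what the mock cells received, so the DNA and the act of transfection cannot be told apart.

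MAP kinase cascades pass signals from growth factor receptors and from stress to the nucleus through the kinases ERK, JNK and p38. Cells limit these signals with inhibitors whose genes the same cascades switch on. Dual-specificity phosphatases remove the activating phosphates from the kinases, and Sprouty and Spred proteins restrain the steps between receptor and Raf. In melanoma, where ERK signalling drives growth, transcripts such as Dusp6 and Spry4 are widely used as readouts of ERK output.

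The arrays carried the signs of the labelled cell and treatment. All 7 melanocyte markers lay above background on each array, where background is the 95th percentile of olfactory receptor genes on that array (4.85 to 5.07 on the log2 scale). Their mean log2 level was 10.85 to 11.02 over the 4 arrays. Of 7 myeloid markers 4 lay above background on all arrays (Cd68, Csf1r, Lyz2 and Fcer1g), with Ptprc, Adgre1 and Itgam below it on all 4. The mean of the list was 5.13 to 5.17 on mock and 4.95 to 5.14 on AT90ES arrays. Of 7 fibroblast and endothelial markers 3 lay above background on all arrays, with a list mean of 5.16 to 5.17 on mock and 5.18 to 5.27 on AT90ES arrays. The part of other cells in the results was not tested, and in RNA from whole cultures fewer cells of a type and less RNA per cell cannot be told apart. The interferon-induced gene Ifit1 was 6.05 higher and the chemokine gene Ccl5 6.32 higher on the log2 scale on the AT90ES arrays (limma adjusted p = 8.48e-05 for each).

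Promoter sequences were taken from RefSeq (GRCm38.p6), from 250 bases before to 50 after the start of each gene. Of the 10 genes 8 matched the table, while Dusp4 and Spry4 did not and were not searched. The promoters of Dusp1 and Dusp5 are shown because they held a match to a searched motif. Those of Dusp6 and Dusp16 are shown because these genes had the largest measured difference in either direction. Each reads 5′ to 3′ along the gene's own strand, and capitals mark motif matches. The regions are Dusp1 at chr17:26508423-26508722, minus strand, Dusp5 at chr19:53528895-53529194, plus strand, Dusp6 at chr10:99262981-99263280, plus strand, and Dusp16 at chr6:134792579-134792878, minus strand.
Dusp1: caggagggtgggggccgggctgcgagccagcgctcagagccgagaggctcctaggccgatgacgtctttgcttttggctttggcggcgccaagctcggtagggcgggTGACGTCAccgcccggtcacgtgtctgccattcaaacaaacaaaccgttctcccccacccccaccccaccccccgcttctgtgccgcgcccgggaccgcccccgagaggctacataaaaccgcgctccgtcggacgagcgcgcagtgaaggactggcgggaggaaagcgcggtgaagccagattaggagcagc
Dusp5: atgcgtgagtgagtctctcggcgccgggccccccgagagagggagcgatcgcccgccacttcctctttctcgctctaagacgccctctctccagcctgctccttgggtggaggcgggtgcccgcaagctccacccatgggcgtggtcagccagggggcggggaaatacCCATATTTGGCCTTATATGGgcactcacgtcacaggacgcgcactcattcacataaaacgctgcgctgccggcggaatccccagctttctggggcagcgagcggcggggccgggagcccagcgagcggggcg
Dusp6: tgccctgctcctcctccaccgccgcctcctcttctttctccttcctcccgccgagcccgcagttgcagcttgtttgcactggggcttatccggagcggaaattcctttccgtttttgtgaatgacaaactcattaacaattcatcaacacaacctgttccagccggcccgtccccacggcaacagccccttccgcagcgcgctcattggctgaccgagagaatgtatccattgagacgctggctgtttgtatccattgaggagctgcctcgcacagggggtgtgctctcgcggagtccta
Dusp16: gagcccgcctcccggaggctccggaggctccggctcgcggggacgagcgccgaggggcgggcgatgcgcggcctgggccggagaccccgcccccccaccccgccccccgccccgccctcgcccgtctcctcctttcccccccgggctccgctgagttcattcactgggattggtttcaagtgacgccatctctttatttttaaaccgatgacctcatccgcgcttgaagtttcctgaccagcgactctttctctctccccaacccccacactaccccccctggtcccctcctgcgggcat

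The full cAMP response element, TGACGTCA, the site of CREB and ATF factors, occurred in 1 of the 8 promoters, that of Dusp1, from 143 to 136 bases before the start. Of 32544 RefSeq promoters of the same length, 1.8% held it. The serum response CArG element, the binding site of serum response factor, occurred only in the Dusp5 promoter among the 8, as 2 copies side by side that begin 82 and 72 bases before the start, and 1.64% of all promoters held at least 1 copy. The AP-1 element TGANTCA, the ETS element CCGGAAGT and the interferon-stimulated response element, searched as GAAANNGAA, had no match in the 8 promoters, against 7.79%, 3.92% and 8.53% of all promoters. Both strands were searched, and no matches overlapped. A match is a run of letters, not a shown binding site.

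The groups were compared for whether the feedback genes moved after DNA transfection. They were also compared for whether an ERK-dependent set (Dusp4, Dusp6, Spry2 and Spry4) moved otherwise than a stress-linked set (Dusp1, Dusp10 and Dusp16). The first set was named for the signal its genes depend on, the second for JNK and p38, the kinases its proteins act on. Whether ERK maintains the first set in these cells was not tested. Of the first set, only the promoters of Dusp6 and Spry2 were searched for motifs. Limma called 0 of the 10 genes at an adjusted p under 0.05, where 0.415% of all genes were called, each of them higher (92 genes) and none lower. With an intensity trend in the spread estimate, limma called 1, Dusp6, and 2.67% of all genes (0.73% as lower). At an unadjusted p under 0.05, 3 of the 10 passed, where 9.09% of all genes did: 2 were lower (Dusp4 and Dusp6, against 4.59% of all genes) and 1 higher (Dusp16, against 4.5% of all genes). That split depended on the scaling and the fit. With arrays centred on reference genes 3 were lower and 0 higher, with 689 genes higher and 1848 lower over all genes, and with arrays centred on their median 0 passed, with 1015 genes higher and 655 lower. With the replicate number as a block 0 passed (758 genes higher and 665 lower), and with an intensity trend 4 did, Spred1 being added as lower. As deposited, 999 genes were higher and 1017 lower at this level. The 10 genes had log2 fold changes from -0.35 to 0.35 and a median of -0.01, beside a median of -0.02 over all genes. Every one of the 10 lay inside the range that held the middle 90% of genes, -0.36 to 0.35, with Dusp4, Dusp6 and Dusp16 near its ends. The share of all genes with a lower log2 fold change was 5.98% for Dusp4, 5.41% for Dusp6 and 94.97% for Dusp16.

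**Figure D1:**
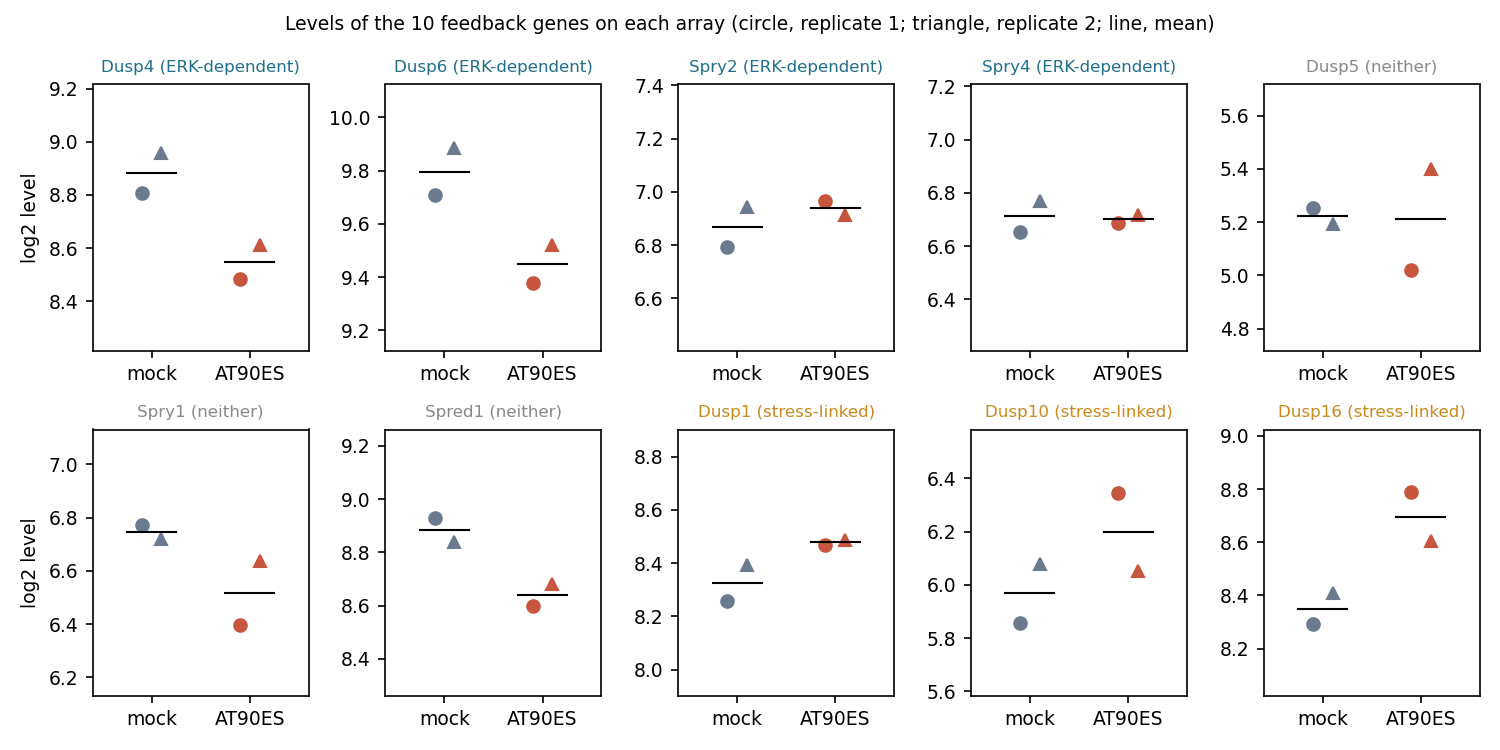
Log2 level of each of the 10 feedback genes on the 2 mock and 2 AT90ES arrays, with the group mean as a line; each panel spans 1 log2 unit around its own centre. Dusp4, Dusp6, Spry1 and Spred1 have both AT90ES arrays below both mock arrays, Dusp1 and Dusp16 have both above, and the other 4 overlap.

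In the ERK-dependent set the measured levels of both phosphatase genes were lower, though not past the adjusted threshold. Those of the Sprouty genes differed by 0.07 and -0.01 on the log2 scale. Dusp4 encodes a nuclear phosphatase of the MAP kinases. Mock replicates 1 and 2 read 8.81 and 8.96 on the log2 scale, and AT90ES replicates 1 and 2 read 8.48 and 8.61. Both AT90ES arrays lay below both mock arrays. Its log2 fold change was -0.33 ± 0.13 (SE, n = 2 arrays per group), or 0.793-fold with a 95% interval of 0.638 to 0.986 (limma adjusted p = 0.525). The intervals given here are limma's for a single gene and are not adjusted for the number of genes.

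Dusp6 encodes the cytoplasmic phosphatase that is specific for ERK. It stood at 9.71 and 9.89 in mock cells and at 9.38 and 9.52 after AT90ES, again with no overlap. The log2 fold change was -0.35 ± 0.13 (SE, n = 2 per group), or 0.787-fold (95% interval 0.628 to 0.987, limma adjusted p = 0.528). With an intensity trend the adjusted p was 0.0348. Over all alternatives it ran from 0.0348 to 0.848. The other, dimmer probe of Dusp6 read 3.73 and 4.15 in mock cells and 4.28 and 3.72 after AT90ES. It lay below background on all 4 arrays and its groups overlapped, so the brighter probe stands for the gene. Averaging both probes gave a log2 fold change of -0.14.

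The Sprouty genes of this set, which encode inhibitors acting between receptor tyrosine kinases and Raf, stayed close to their mock levels. Spry2 read 6.79 and 6.94 on mock and 6.97 and 6.91 on AT90ES arrays, with overlapping groups. The log2 fold change was 0.07 ± 0.12 (SE, n = 2 per group), with a 95% interval of 0.853 to 1.30-fold (limma adjusted p = 0.906). Spry4 read 6.65 and 6.77 on mock and 6.69 and 6.72 on AT90ES arrays, the AT90ES values lying between the mock values. Its log2 fold change was -0.01 ± 0.12 (SE, n = 2 per group), with a 95% interval of 0.81 to 1.22-fold (limma adjusted p = 0.987). The sign of the Spry4 value was positive with arrays centred on their median (0.02).

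The 3 stress-linked phosphatase genes all had higher mean levels on the AT90ES arrays. Dusp16 encodes a phosphatase with a preference for JNK. It read 8.29 and 8.41 on mock and 8.79 and 8.60 on AT90ES arrays, without overlap. The log2 fold change was 0.35 ± 0.13 (SE, n = 2 per group), or 1.27-fold with a 95% interval of 1.02 to 1.59 (limma adjusted p = 0.522), the largest measured difference upward among the 10 genes.

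Dusp1 encodes a nuclear phosphatase of p38, JNK and ERK whose gene is induced within minutes by many stresses, and its promoter is the one above with the cAMP response element. It read 8.26 and 8.39 on mock and 8.47 and 8.49 on AT90ES arrays. The groups did not overlap, but the gap between them was smaller than the gap between the mock arrays. This gave a log2 fold change of 0.15 ± 0.12 (SE, n = 2 per group), with a 95% interval of 0.904 to 1.36-fold (limma adjusted p = 0.759). The value was 0.08 without mock replicate 1 and also with arrays centred on reference genes. Dusp10, whose protein acts on JNK and p38, read 5.86 and 6.08 on mock and 6.35 and 6.05 on AT90ES arrays. AT90ES replicate 2 lay below mock replicate 2, so the groups overlapped. The difference was 0.23 ± 0.16 on the log2 scale (SE, n = 2 per group; limma adjusted p = 0.729), and without AT90ES replicate 1 it was 0.08.

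The other 3 genes belong to neither set here. Spred1 encodes a membrane protein that brings the Ras inhibitor neurofibromin to the membrane. It read 8.93 and 8.84 on mock and 8.60 and 8.68 on AT90ES arrays, both AT90ES values below both mock values. The log2 fold change was -0.24 ± 0.12 (SE, n = 2 per group), or 0.844-fold with a 95% interval of 0.688 to 1.03 (limma adjusted p = 0.611). Spry1, another Sprouty inhibitor of receptor signalling, read 6.77 and 6.72 on mock and 6.40 and 6.64 on AT90ES arrays, also without overlap. Its log2 fold change was -0.23 ± 0.13 (SE, n = 2 per group; limma adjusted p = 0.681), and -0.11 without AT90ES replicate 1 and -0.35 without AT90ES replicate 2. The AT90ES arrays lay further from each other than AT90ES replicate 2 lay from either mock array.

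Dusp5 encodes a nuclear phosphatase specific for ERK, and its promoter is the one with the paired CArG elements. It read 5.25 and 5.19 on mock and 5.02 and 5.40 on AT90ES arrays. The AT90ES values lay on either side of both mock values. Its log2 fold change was -0.01 ± 0.16 (SE, n = 2 per group; limma adjusted p = 0.99), and 0.01 with arrays centred on their median. All 4 values were above the background of their array (4.85 to 5.07) by a small margin. A change of this gene from a level so near background could go unseen.

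**Figure D2:**
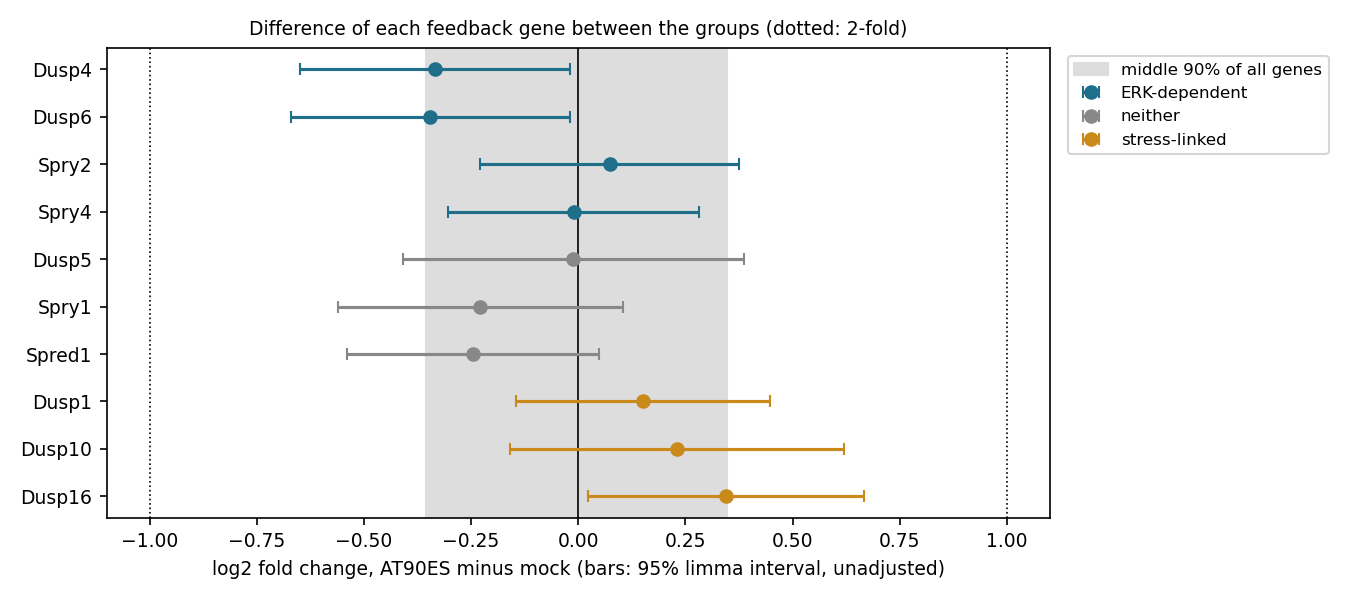
Log2 fold change of each gene, AT90ES minus mock, with limma's 95% interval for a single gene; the grey band holds the middle 90% of all genes and the dotted lines mark a 2-fold change. All 10 points lie in the band, and no interval reaches a 2-fold change in either direction.

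In counts, 4 of the 10 genes had non-overlapping groups with AT90ES lower, where 22.1% of all genes did, and 2 had non-overlapping groups with AT90ES higher, where 17.7% of all genes did. Together this was 6 of 10 beside 39.8% of all genes, a background so high that with 2 arrays per group the lack of overlap alone marks out little. Over the 10 genes the lowest end of a single-gene 95% interval was 0.628-fold (Dusp6) and the highest 1.59-fold (Dusp16), given the spread between these arrays.

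The contrast between the sets was described from the mean deviation of each set from its mock level, array by array. The ERK-dependent set (Dusp4, Dusp6, Spry2 and Spry4) stood at -0.07 and 0.07 in mock cells and at -0.18 and -0.12 after AT90ES. The stress-linked set (Dusp1, Dusp10 and Dusp16) stood at -0.08 and 0.08 on mock and at 0.32 and 0.17 on AT90ES arrays. Neither set's groups overlapped, which also held for 39.8% of single genes, and the sets lay on opposite sides of mock. In each set the gap between the groups was smaller than the gap between the mock arrays. The difference between the sets was 0.0046 and -0.0046 in mock cells and -0.50 and -0.29 after AT90ES. Its mean change was -0.40. The pooled SD between arrays of a group was 0.11, nearly all of it from the AT90ES arrays, and 2 arrays per group fix it poorly. In the ERK-dependent set the shift rested on Dusp4 (-0.33) and Dusp6 (-0.35), beside Spry2 at 0.07 and Spry4 at -0.01. The sets were named with earlier results of these data known, so the contrast carries no test. With Dusp5, Spry1 and Spred1 added to the ERK-dependent set the difference was also -0.40. Those 3 genes together stood at 0.03 and -0.03 in mock cells and at -0.28 and -0.04 after AT90ES.

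**Figure D3:**
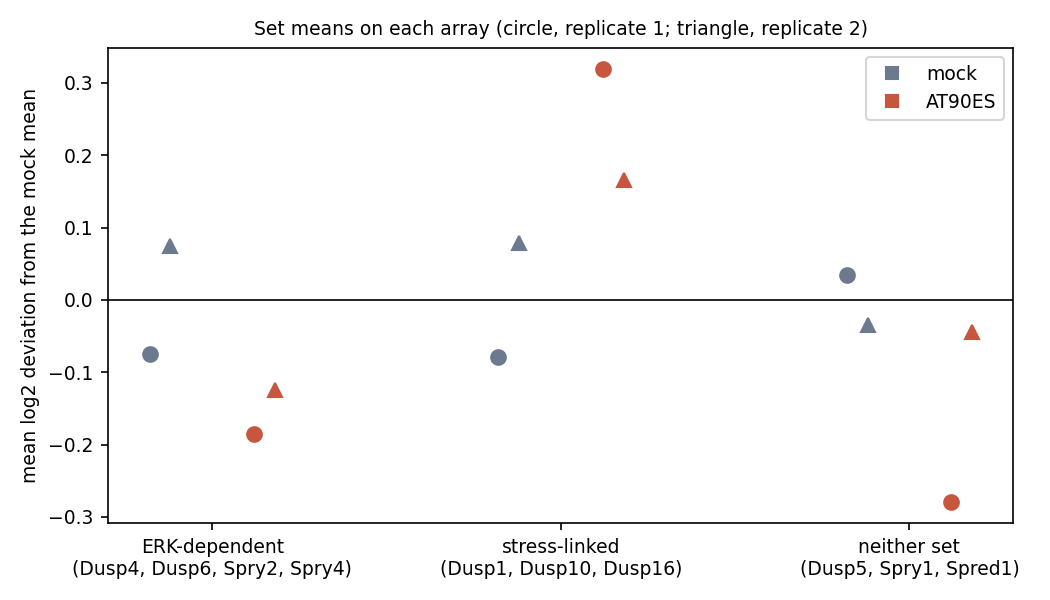
Mean log2 deviation from the mock mean of the ERK-dependent, the stress-linked and the remaining genes on each array. The AT90ES arrays lie below 0 in the first set (-0.18 and -0.12) and above 0 in the second (0.32 and 0.17), while in the third AT90ES replicate 2 (-0.04) lies beside mock replicate 2 (-0.03).

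The rest of the phosphatase and Sprouty families gave the same count. Limma called 0 of 4 other MAP kinase phosphatases and 0 of 3 other Sprouty and Spred genes. At an unadjusted p under 0.05, 1 of the former was higher and 1 of the latter lower, where 4.5% and 4.59% of all genes were. Dusp7 and Dusp2, whose proteins both act on ERK, had log2 fold changes of -0.06 and -0.20. Dusp8, a JNK and p38 phosphatase named after its value was seen, had a larger measured difference than any of the 10 genes. It read 6.30 and 6.63 on mock and 7.32 and 7.35 on AT90ES arrays, with both AT90ES arrays above both mock arrays. The log2 fold change of Dusp8 was 0.87 ± 0.15 (SE, n = 2 per group; limma adjusted p = 0.169). It passed with an intensity trend (adjusted p = 0.0036) and with arrays centred on their median. Spred2, the close relative of Spred1, read 8.03 and 8.19 on mock and 7.79 and 7.80 on AT90ES arrays, a log2 fold change of -0.32 (limma adjusted p = 0.531), and Spred3 stood at -0.09.

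Other genes known as outputs of ERK signalling went in both directions. Of 14 measured, limma called 0, and the median log2 fold change was 0.06. At an unadjusted p under 0.05, 3 were higher and 3 lower, where 4.5% and 4.59% of all genes were. Ccnd1, which encodes cyclin D1, read 10.35 and 10.39 on mock and 10.08 and 10.05 on AT90ES arrays, a log2 fold change of -0.30 (limma adjusted p = 0.521). Myc, a growth-promoting transcription factor gene, stood at -0.45 (limma adjusted p = 0.393). On the upward side, and named after their values were seen, Ier3, a survival gene, stood at 0.95, the early transcription factor gene Egr1 at 0.81, and Etv5, an ETS factor gene, at 0.78 (limma adjusted p = 0.339, 0.375 and 0.31). With an intensity trend in limma Ccnd1 (adjusted p = 0.0102) and Myc (0.00293) passed, and so did Ier3 (0.00445) and Etv5 (0.00838). Egr1 did not (0.0632), nor did the remaining lower gene, Etv1 (log2 fold change -0.38, adjusted p = 0.216). Egr1 was above background on 3 of the 4 arrays.

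The kinase cascades themselves had no called gene. Of 15 measured genes of the ERK cascade limma called 0, with a median of -0.02. At an unadjusted p under 0.05 also 0 passed, where 9.09% of all genes did. Ptpn11, the phosphatase that carries receptor signals to Ras, stood at 0.28 (limma adjusted p = 0.556, and 0.0419 with an intensity trend), and Map2k2, which encodes an ERK-activating kinase, at -0.02. Of 17 measured genes of the JNK and p38 cascades limma called 0, with a median of -0.07. At an unadjusted p under 0.05, 1 was higher and 2 lower, where 4.5% and 4.59% of all genes were. Map2k3, an activator of p38, and Mapkapk2, a kinase that p38 activates, stood at -0.05 and 0.02.

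Transcripts listed here as induced by JNK, p38 or CREB were the list with called genes. The list was not built to leave out genes that ERK also induces. Which kinase acted on its genes was not tested. Of 10 measured, 2 rose, where 0.415% of all genes did, and 0 fell. At an unadjusted p under 0.05, 5 were higher, where 4.5% of all genes were. The median log2 fold change was 0.40, beside -0.02 over all genes. Atf3, a stress-induced transcription factor gene, rose from 6.65 and 6.70 on mock to 8.19 and 8.13 on AT90ES arrays, a log2 fold change of 1.48 ± 0.12 (SE, n = 2 per group; limma adjusted p = 0.0124). Zfp36, whose protein speeds the decay of inflammatory mRNAs, rose from 6.16 and 6.13 to 7.27 and 7.24, a change of 1.11 ± 0.11 (limma adjusted p = 0.0299). Both calls were lost when any 1 array was left out, with adjusted p from 0.0521 to 0.118 for Atf3 and from 0.132 to 0.242 for Zfp36. With the replicate number as a block Atf3 kept its call (adjusted p = 0.0132) and Zfp36 did not (0.0503). On the same arrays Dusp1 had a log2 fold change of 0.15; whether Dusp1 and these genes differ was not tested.

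**Figure D4:**
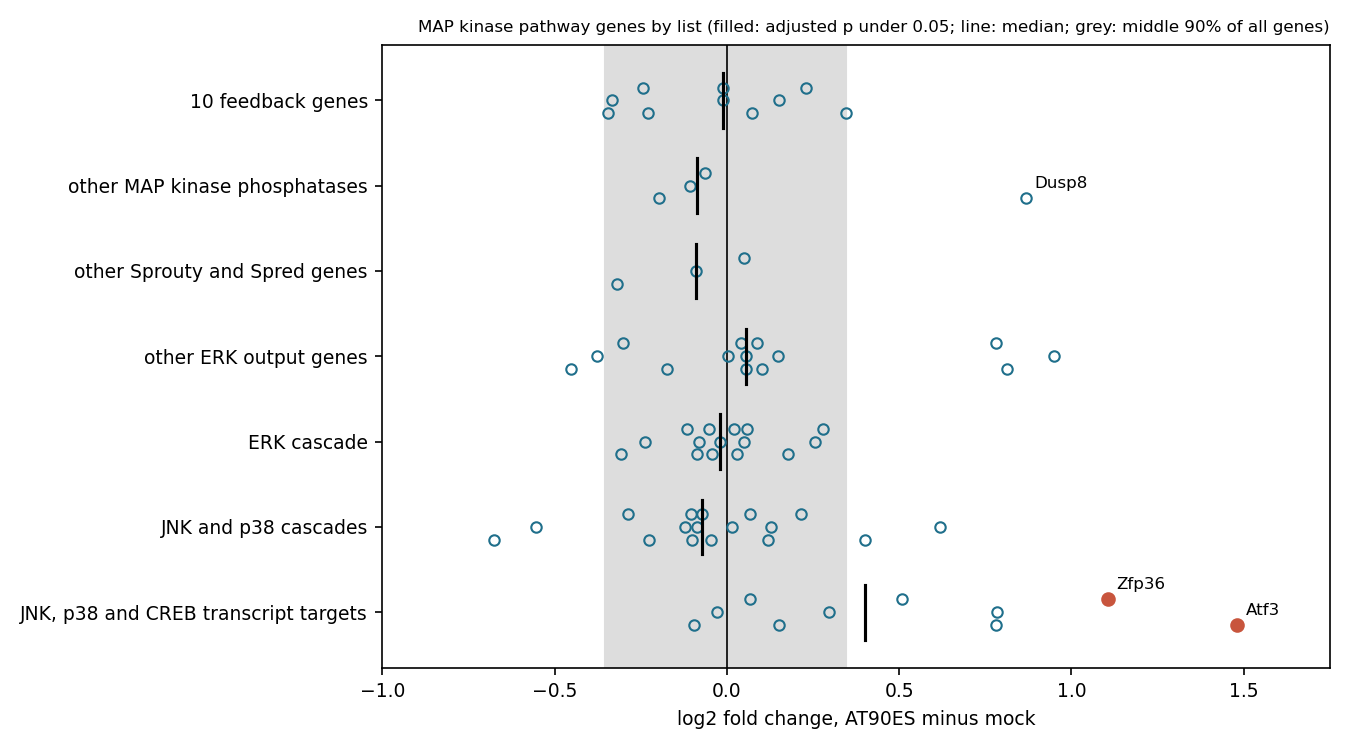
Log2 fold change, AT90ES minus mock, of every measured gene in the 10 feedback genes and 6 related lists, with the list median as a line and the middle 90% of all genes in grey. Filled points mark Atf3 (1.48) and Zfp36 (1.11), the only genes past the adjusted threshold, and the 10 feedback genes stay within -0.35 to 0.35.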

How the data were processed

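RNA of B16-OVA cells was measured on 4 arrays, 2 mock and 2 AT90ES, with 300 ng of RNA on each, per the labels. The authors deposited log2 values for 41345 probes, which RMA produced per the submitters' processing notes; its settings are not given in the sources used here. RMA removes changes shared by all genes. Of the probes, 23521 had 1 platform gene symbol, and the probe with the highest mean stood for each of 22180 genes. Groups were compared in limma 3.58.1 (R 4.3.3; lmFit, eBayes, no covariate), two-sided, with Benjamini-Hochberg adjustment over all genes at 0.05. An exact permutation test of 2 against 2 arrays cannot go below p = 0.333. Nothing says that replicates were separate cultures, so p-values measure the spread between arrays, which may be technical. The number of arrays limits the precision. The fit was also run on simulated data drawn independently with the spread that limma estimated. That run checks the computation and cannot show whether the assumed spread holds for these arrays.

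The genes, sets and lists were chosen with earlier results of these data known. By rule the text names all 10 genes, up to 4 called genes of each list or else its 2 brightest, and Ccl5, Ifit1 and Cxcl10 as a check (Cxcl10 was 5.11 higher). Alternatives covered the spread estimate, dim genes, scaling, probe choice, a replicate block and leaving out each array.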

Additional observations from a re-analysis of the deposited data

How the results depend on the processing

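As reported, limma called 0 of the 10 genes, so leaving out an array had no call to remove. The call of Dusp6 with an intensity trend was not refitted without an array. Scaling, averaging of probes and leaving out an array moved 61 values of the 10 genes, of which 54 kept their sign. The other 7, of Spry2, Spry4 and Dusp5, changed it, the largest at 0.18. The other alternatives change only the spread or the number of tests. Of 130 adjusted p-values over 13 alternatives, 129 stayed at 0.05 or more, and the exception was Dusp6 with an intensity trend, where 1 gene was called. The difference between the ERK-dependent and stress-linked sets ran from -0.50 to -0.29 over the 7 alternatives that can move it (leaving out an array, averaging probes, the median and the wider set). With every probe tested separately limma called 30 of the 41345 probes. Over all genes it called 593 with an intensity trend (162 lower), 166 with dim genes left out (7 lower) and 176 with arrays centred on their median (4 lower). Without 1 array the number was 32 to 47, the lowest without AT90ES replicate 1, and these fits borrow the spread of a lone array from the other group. Of the genes in the 6 related lists, 2 were called as reported, 14 with an intensity trend, 4 with dim genes left out or arrays centred on their median, 0 with every probe tested separately and 0 without any 1 array. Counting each probe adds tests, and leaving out an array removes a sample; the cause of the other shifts was not tested. The replicate numbers pair nothing in the labels. Deviations of same-numbered arrays had r = -0.22 across genes, which are not independent replicates. With the replicate block 85 genes were called, 0 of the 10 feedback genes and 1 of the lists. Under the crossed pairing, added after the data were seen, these counts were 59, 0 and 1. Signal near background limits what can be said of Dusp5 and of the dimmer Dusp6 probe.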

Other observations

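Within the JNK and p38 cascades 3 genes, singled out after their values were seen, passed the adjusted threshold with an intensity trend and not as reported. Map2k4, which encodes a kinase that activates JNK, read 8.50 and 8.31 on mock and 9.02 and 9.03 on AT90ES arrays, a log2 fold change of 0.62 (limma adjusted p = 0.251, and 0.00161 with an intensity trend). Map2k6, an activator of p38, read 6.35 and 6.67 on mock and 5.93 and 5.74 on AT90ES arrays, a log2 fold change of -0.68 (limma adjusted p = 0.324, and 0.0455 with an intensity trend). Mapk11, which encodes the beta form of p38, read 7.36 and 7.34 on mock and 6.83 and 6.76 on AT90ES arrays, a log2 fold change of -0.56 (limma adjusted p = 0.259, and 0.0255 with an intensity trend). In each of the 3 the groups did not overlap, as in 39.8% of all genes. Gadd45b, a stress-induced gene whose protein acts on kinases upstream of p38 and JNK, had a log2 fold change of 0.40 and did not pass with the trend (adjusted p = 0.202).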
